A study of Mus musculus with 22 samples.

Results

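The genes described here are 10 mouse genes listed together as stomach-type secreted and surface genes: Cym, Pgc, Gkn1, Gkn2, Vsig1, Psca, Tff1, Tff2, Gp2 and Spink1. The name is that of the list, and Gp2 and Spink1 are described below as products of pancreas and of other epithelium of the gut. The 10 genes were named as a list, and their values were read in lung epithelium in 22 libraries. The files of E18.5, a late day of gestation, held 6 of the 10 (Cym, Pgc, Vsig1, Psca, Tff2 and Gp2) among 13750 genes. The 6-month files held the same 6 and Spink1, 7 in all, among 15958 genes. Gkn1, Gkn2 and Tff1 were in neither set of files and were not analysed here. The sources used here do not give the rule by which genes entered the files, so a gene may be present through the groups in which it is high, and the number present was read as no result.

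The study varied 2 neighbouring genes: Nkx2-1 (Nkx2.1 in the labels), which encodes a homeodomain transcription factor of lung and thyroid, and NANCI, a long noncoding RNA transcribed beside it. At E18.5 there were 3 libraries of each of 4 genotypes. WT libraries came from NANCI-+/+ mice, and NANCI libraries from mice with the CreERT2:RFP insertion on both copies of that locus (NANCI-CreERT2:RFP/CreERT2:RFP). Nkx libraries carried a GFP insertion on 1 copy of the other locus (Nkx2.1-GFP/+), and Double libraries carried 1 copy of each insertion (NANCI-CreERT2:RFP/+:Nkx2.1-GFP/+). At 6 months there were 3 WT, 3 Nkx and 4 Double libraries of the same genotypes and no NANCI library. NANCI mice thus had 2 copies of the NANCI insertion and Double mice 1. The sources used here do not give the strain, any use of tamoxifen, or whether a library is 1 animal or a pool. P-values therefore measure the spread between the libraries of a group, part of which may be technical.

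The stomach lining protects itself with a layer of mucus and peptides and digests protein with acid-activated proteases. Mucous cells secrete gel-forming mucins, gastrokines and trefoil peptides, small cysteine-rich proteins that stabilise mucus and aid repair of the surface. Chief cells at the base of the glands store protease precursors. Lung and stomach both arise from foregut endoderm, and Nkx2-1 marks the lung part of it. In mouse lung tumours that lose Nkx2-1, stomach genes are known to appear.

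Expression values are log2 values, quantile-normalized within an age, so 1 unit is a 2-fold difference in level. The values are not per transcript length, so levels were compared between libraries and not between genes. Embryonic cells were pulled down on magnetic beads by EpCAM, a surface protein of epithelium. Adult cells were taken by FACS with a gate for EpCAM+ that left out CD45+ leukocytes and CD31+ endothelium. Age and enrichment changed together, so no difference between ages was tested. The lowest value of an E18.5 library was 1 to 1.66, held by 10 to 37 genes, and that of a 6-month library 1 to 3.07, held by 4 to 201 genes, and a gene at that value is called listed at the lowest value. The number of distinct values up to the median, a stand-in for depth, was 209 to 284 and 128 to 382 per library, and total reads are unknown. The 7 lung epithelium markers (Epcam, Cdh1, Nkx2-1, Sftpc, Sftpb, Krt8 and Krt18) were all measured, and their mean was 14.73 to 15.49 in the E18.5 libraries and 15.65 to 16.15 in the 6-month libraries. The Nkx2-1 transcript ranged from 14.48 to 14.95 in the former and from 13.75 to 14.55 in the latter, with no difference between groups that passed the test, and it does not check the labels because reads of the GFP copy may be counted.

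On the GRCm38 build, Pgc lies on chromosome 17 (47726842 to 47734482, plus strand), Cym on chromosome 3 (107211293 to 107221732, minus strand) and Gp2 on chromosome 7 (119442537 to 119459285, minus strand). Vsig1 lies on chromosome X (140907608 to 140939472, plus strand) and Psca on chromosome 15 (74714839 to 74717069, plus strand). Tff2 (chromosome 17, 31141049 to 31144282, minus strand) stands in a row with the other trefoil genes: 11402 bases part it from Tff3 and 17112 from Tff1. Gkn1 and Gkn2 are neighbours on chromosome 6, 22414 bases apart, and Gkn3, the third gastrokine gene, follows Gkn2 after 3758 bases. All of these genes are annotated as protein coding.

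The sequence before the start of 4 of the measured genes is shown because these genes rose in at least 1 of the comparisons below and so that the letters near their start sites can be set side by side. It comes from RefSeq on GRCm38.p6, for Cym (chr3:107221733-107221982, minus strand), Pgc (chr17:47726592-47726841, plus strand), Gp2 (chr7:119459286-119459522, minus strand) and Vsig1 (chrX:140907358-140907607, plus strand). Each runs 5′ to 3′ and ends at the base before the annotated gene, and the Gp2 window is 13 bases shorter, at 237, because another annotation (GENCODE) begins the gene earlier. Capitals mark every match to a motif searched. Psca and Tff2 had no entry. Spink1, measured in the adult libraries alone, also rose below but was not taken into this search. The statements on motifs therefore do not cover Spink1.
Cym: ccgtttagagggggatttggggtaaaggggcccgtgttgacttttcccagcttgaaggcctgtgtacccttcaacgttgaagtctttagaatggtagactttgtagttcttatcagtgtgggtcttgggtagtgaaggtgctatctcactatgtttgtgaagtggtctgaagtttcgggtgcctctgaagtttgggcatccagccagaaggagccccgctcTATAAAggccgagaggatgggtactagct
Pgc: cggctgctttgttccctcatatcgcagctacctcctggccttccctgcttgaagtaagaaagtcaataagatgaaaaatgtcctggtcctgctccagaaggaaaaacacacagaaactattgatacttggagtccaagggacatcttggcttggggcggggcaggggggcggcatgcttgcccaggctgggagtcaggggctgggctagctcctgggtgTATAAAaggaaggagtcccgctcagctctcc
Gp2: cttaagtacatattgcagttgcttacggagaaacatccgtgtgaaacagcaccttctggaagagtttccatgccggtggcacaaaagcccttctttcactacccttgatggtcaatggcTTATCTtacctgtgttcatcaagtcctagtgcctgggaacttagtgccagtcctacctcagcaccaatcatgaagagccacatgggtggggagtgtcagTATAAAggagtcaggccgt
Vsig1: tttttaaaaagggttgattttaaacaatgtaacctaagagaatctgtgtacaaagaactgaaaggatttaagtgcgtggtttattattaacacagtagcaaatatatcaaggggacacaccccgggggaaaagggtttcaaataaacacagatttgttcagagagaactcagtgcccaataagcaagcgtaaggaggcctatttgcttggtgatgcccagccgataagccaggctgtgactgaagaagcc

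The letters searched were CACTNNAG for NKX2-1, CAAAGTNCA for HNF4, TGTTTNC for FOXA and AGATAA for GATA, on both strands, and TATAAA, the TATA box, on the strand of the gene. Cym, Pgc and Gp2 each hold a TATAAA, 29 to 24, 31 to 26 and 32 to 27 bases before the RefSeq start, while 8.12% of 27025 promoter windows of 250 bases hold 1 anywhere. Gp2 also holds a GATA match, read as TTATCT, 131 to 126 bases before the start (10.3% of all windows hold a GATA match). None of the 4 windows holds the NKX2-1, HNF4 or FOXA letters, which 12.7%, 1.21% and 17.9% of all windows hold. None of the matches overlap. A match is a run of letters and not a site of binding.

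At E18.5, the secreted genes Pgc, Tff2 and Gp2 were higher in Nkx than in WT libraries, and Pgc, Tff2, Gp2, Cym and Vsig1 were higher in Double than in WT. No member differed between NANCI and WT or between Double and Nkx at the adjusted threshold. The groups Nkx and Double are both compared with the same 3 WT libraries. In bulk samples such as these, more cells that make a transcript and more transcript per cell cannot be told apart.

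Pgc encodes progastricsin, a pepsinogen of gastric chief cells that alveolar type 2 cells of normal lung also make. In log2 units its level was 9.67, 9.65 and 9.21 across WT, 9.77, 9.38 and 9.82 across NANCI, 11.24, 11.73 and 10.96 across Nkx, and 9.90, 11.67 and 11.37 across the Double libraries. Pgc was already expressed in WT, and each Nkx and Double library lay above each WT library, with Double replicate 1 close to the WT range. The log2 fold change against WT was 1.80 ± 0.37 (SE) in Nkx, or 3.47-fold (limma adjusted p = 0.0114), and 1.46 ± 0.37 in Double, or 2.76-fold (adjusted p = 0.0197). Double differed from Nkx by −0.33 ± 0.37 (adjusted p = 1), with a 95% interval of −1.13 to 0.47. Without WT replicate 1, Double replicate 2 or Double replicate 3, the Double difference did not pass (1.54, 1.12 and 1.27; adjusted p = 0.05, 0.0835 and 0.081).

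Cym encodes chymosin, the milk-clotting protease of the stomach of young mammals. Its log2 levels were 6.62, 5.82 and 3.70 across WT, 6.06, 5.87 and 6.25 across NANCI, 6.41, 8.69 and 7.76 across Nkx, and 8.13, 10.32 and 8.80 across the Double libraries. The Double libraries lay above all WT libraries, while Nkx replicate 1 lay inside the WT range. Cym rose in Double by 3.71 ± 0.75 on the log2 scale, or 13.1-fold (limma adjusted p = 0.00584). It was 2.87 without WT replicate 3, 4.33 without WT replicate 1 and 3.09 without Double replicate 2, and passed in each (adjusted p = 0.00978, 0.00694 and 0.0287). In Nkx the difference was 2.24 ± 0.75 (adjusted p = 0.0941), and from Nkx to Double it was 1.47 ± 0.75 (adjusted p = 1, 95% interval −0.15 to 3.09).

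Tff2 encodes the trefoil peptide of gastric mucous neck cells, also called spasmolytic polypeptide. The 3 WT libraries all listed it at their lowest value, NANCI libraries had 2.92, 3.68 and 3.09, Nkx libraries 6.78, 5.69 and 5.18, and Double libraries 5.25, 8.13 and 3.35. All Nkx and Double libraries lay above WT, and Double libraries were spread from the NANCI range to the highest value of all. The test passed in Nkx (limma adjusted p = 0.011) and in Double (adjusted p = 0.0091), and no fold is given against a group at its lowest value. The NANCI libraries also lay above all WT libraries, which is 1 of 6 genes (2.97% of all genes), but this did not pass (unadjusted p = 0.0612, adjusted p = 0.978). With values under 4 raised to 4, neither the Nkx nor the Double difference of Tff2 passed (adjusted p = 0.184 and 0.161).

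Gp2 encodes a lipid-anchored glycoprotein of pancreatic zymogen granules and of the M cells that cover lymphoid follicles. Its log2 levels were 3.12, 2.89 and 2.89 across WT, 3.52, 3.68 and 2.32 across NANCI, 8.14, 5.01 and 6.47 across Nkx, and 4.58, 5.75 and 5.61 across the Double libraries. It was near the bottom of the WT and NANCI libraries and clear of both in Nkx and Double, whose ranges overlapped. Gp2 rose in Nkx by 3.57 ± 0.70, or 11.9-fold (limma adjusted p = 0.00881), and in Double by 2.35 ± 0.70, or 5.09-fold (adjusted p = 0.0408). The Nkx difference was 2.54 with values under 4 raised to 4, 2.77 without Nkx replicate 1 and 4.33 without Nkx replicate 2, and it passed in each (adjusted p = 0.0249, 0.0292 and 0.0038). The Double call was close to the threshold: it was lost under 13 of 19 alternatives, among them the loss of any 1 WT library or of Double replicate 2 or 3 (2.13 to 2.42, adjusted p = 0.0619 to 0.133), and of NANCI replicate 1 or 2 or Nkx replicate 3, which enter the shared spread alone (adjusted p = 0.0512 to 0.0572). With values under 4 raised to 4 the Double difference was 1.32 and did not pass (adjusted p = 0.188). All WT values lay under 4, so the size of both folds rests on low reference values. The Double minus Nkx difference was −1.22 ± 0.70 (adjusted p = 1, 95% interval −2.74 to 0.29).

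Vsig1 encodes a junctional membrane protein of the immunoglobulin superfamily, found on gastric epithelium. Its log2 levels were 4.97, 3.99 and 5.18 across WT, 5.30, 4.74 and 4.71 across NANCI, 5.75, 5.60 and 6.25 across Nkx, and 7.54, 7.24 and 6.54 across the Double libraries. The groups WT, Nkx and Double followed each other without overlap. Vsig1 rose in Double by 2.39 ± 0.41, or 5.25-fold (limma adjusted p = 0.00224). The steps from WT to Nkx (1.15 ± 0.41, adjusted p = 0.114) and from Nkx to Double (1.24 ± 0.41, unadjusted p = 0.00968, adjusted p = 0.878) did not pass over all genes.

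Psca encodes a small lipid-anchored protein, prostate stem cell antigen, of stomach, bladder and prostate epithelium. It was listed at the lowest value in WT replicates 1 and 2, in the 3 NANCI libraries and in Nkx replicate 2. WT replicate 3 was at 4.15, Nkx replicates 1 and 3 at 6.72 and 6.25, and the Double libraries at 7.28, 2.70 and 2.76. Nkx libraries thus ranged from the bottom of the scale to above 6, and no difference of Psca passed (Nkx 2.34 ± 1.53, adjusted p = 0.417; Double 1.93 ± 1.53, adjusted p = 0.472). The 95% intervals, −0.97 to 5.66 and −1.38 to 5.25, hold both no difference and a large rise.

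**Figure D1:**
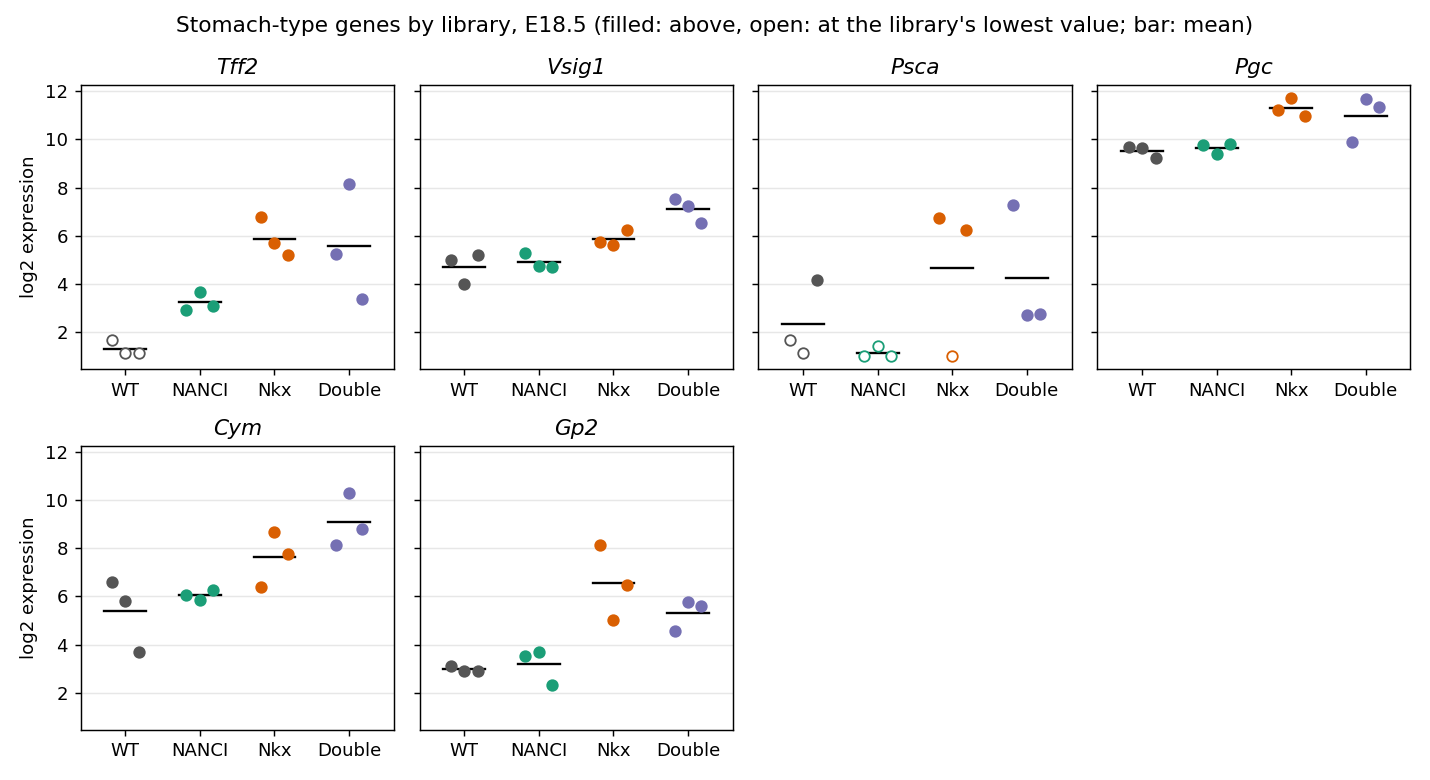
Log2 expression of the 6 measured genes in each E18.5 library (points, in replicate order within WT, NANCI, Nkx and Double; vertical axis in log2 units; bars are group means; open points are at the library's lowest value). Gp2 lies at 2.32 to 3.68 in WT and NANCI and at 4.58 to 8.14 in Nkx and Double, and the Double libraries of Vsig1 lie at 6.54 to 7.54, above all others.

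A gene may be in the files because of the groups in which it is high. The members were also chosen with earlier results of these data known. Counts therefore describe only the genes present, and the shares of all genes beside them are no test. Of the 6 genes at E18.5, 3 were called higher in Nkx than in WT, where 3.67% of all 13750 genes rose and 7.32% passed in either direction. In 4 of the 6 all Nkx libraries lay above all WT libraries, against 11.7% of all genes. In Double against WT, 5 of 6 rose, where 7.13% of all genes rose and 14.6% passed either way, and 5 of 6 were clear of WT, against 14.0%. In NANCI against WT, 0 of 6 passed (0.0% of all genes) in limma, and at an unadjusted p under 0.05 it was also 0 of 6, against 3.1% of all genes. The differences there were 0.14 ± 0.37 for Pgc, 0.68 ± 0.75 for Cym, 0.21 ± 0.70 for Gp2 and 0.20 ± 0.41 for Vsig1, and in each of the 4 the groups overlapped. In Double against Nkx 0 of 6 passed, where 0.00727% of all genes did, and at an unadjusted p under 0.05 it was 1 of 6, against 4.07%. In 1 of 6, Vsig1, all Double libraries lay above all Nkx libraries, against 4.7% of all genes. With only the 2 libraries of female pattern (Xist above the Y-linked genes) in each of WT, Nkx and Double, 0 of 6 passed in Nkx and in Double against WT, and 5 and 84 of all genes did.

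Leukocyte markers moved with these groups at E18.5. The mean of the 8 measured of 14 markers was 6.65 to 6.96 in WT, 5.97 to 6.39 in NANCI, 3.46 to 4.93 in Nkx and 3.57 to 4.49 in Double libraries, and 4 of the 8 fell in Nkx and 7 in Double. Of all genes, 7.32% passed in either direction in Nkx against WT and 14.6% in Double against WT. No measured marker was at the lowest value in all libraries of the age, and their part in the rise of Pgc, Tff2, Gp2, Cym and Vsig1 was not tested. Mesothelial markers were at 8.76 to 9.77 in WT, 9.32 to 10.04 in NANCI, 10 to 10.7 in Nkx and 10.85 to 12.05 in Double libraries (2 of 4 measured), and their part was not tested either. In Double against WT 2 of 7 endothelial markers fell, and of 5 mesenchymal markers 2 fell and 1 rose, while 0 of the 7 and 0 of the 5 passed in Nkx. The mean of the endothelial markers was 7.28 to 7.97 in WT, 6.75 to 7.59 in Nkx and 6.29 to 7.6 in Double libraries, and that of the mesenchymal markers 6.24 to 6.67, 5.51 to 6.42 and 5.67 to 5.85. Sex was mixed in WT, Nkx and Double (2 libraries of female and 1 of male pattern each), while the 3 NANCI libraries had the male pattern.

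At 6 months the 7 measured genes are grouped here by which differences passed. The Nkx calls of Gp2, Cym and Tff2 were lost under 15, 8 and 7 of 18 alternatives. Cym, Pgc and Gp2 were higher in Nkx than in WT, and no further rise in Double passed the test, though all Double libraries of Pgc lay above Nkx. Vsig1, Psca and Spink1 were high in Double over both WT and Nkx. Tff2 rose at each step. Whether these genes differ from one another in their pattern was not tested. Nkx and Double are again compared with the same WT libraries, and Double against Nkx shares libraries with both.

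Tff2 was at 9.41, 8.41 and 10.65 (log2) across WT, 12.49, 12.73 and 11.80 across Nkx, and 15.71, 15.73, 14.29 and 15.09 across the Double libraries. The 3 genotypes lay apart, with more than 1 log2 unit between the highest library of each group and the lowest of the next. Tff2 rose from WT to Nkx by 2.85 ± 0.51, or 7.21-fold (limma adjusted p = 0.02), and from Nkx to Double by 2.86 ± 0.48, or 7.27-fold (adjusted p = 0.00183). Double against WT came to 5.71 ± 0.48, or 52.4-fold (adjusted p = 1.06e-05). The step from WT to Nkx did not pass without WT replicate 1 or 2 or Nkx replicate 1 or 2 (2.31 to 2.81, adjusted p = 0.0559 to 0.0937), and both Double differences passed under all 18 alternatives. Among female-pattern libraries alone Tff2 differed by 1.96 in Nkx (adjusted p = 0.3) and by 4.55 in Double (adjusted p = 0.001), and with sex pattern as a covariate Double differed by 4.86 from WT (adjusted p = 5.44e-05).

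Spink1, a trypsin inhibitor secreted by pancreas and by gut epithelium, was near the bottom of the scale in WT (1.48, 2.29 and 2.29, the first at the lowest value) and in Nkx (4.07, 2.34 and 3.25, the second at the lowest value). The 4 Double libraries were at 9.05, 9.66, 7.80 and 9.80, well above every other library. Spink1 rose in Double by 7.05 ± 0.61 against WT, or 133-fold (limma adjusted p = 1.26e-05), and by 5.86 ± 0.61 against Nkx, or 57.9-fold (adjusted p = 0.000147). Both folds rest on reference values at or near the lowest, and with values under 4 raised to 4 they were smaller, at 5.08 and 5.05 on the log2 scale (adjusted p = 1.41e-05 and 5.28e-05). In Nkx against WT the difference was 1.2 ± 0.65 (adjusted p = 0.306, 95% interval −0.23 to 2.62).

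Vsig1 lay at 4.14, 5.57 and 5.95 (log2) across WT, 6.04, 6.36 and 6.03 across Nkx, and 11.32, 10.38, 9.71 and 11.41 across the Double libraries. Nkx libraries sat just above the WT range, and Double libraries more than 3 log2 units higher. The rise in Double was 5.48 ± 0.48 against WT, or 44.7-fold (limma adjusted p = 1.3e-05), and 4.56 ± 0.48 against Nkx, or 23.6-fold (adjusted p = 0.000151). Among female-pattern libraries alone the difference of Double from WT was 4.76 (adjusted p = 0.00195). The Nkx difference from WT, 0.92 ± 0.51, did not pass (adjusted p = 0.313, 95% interval −0.19 to 2.04).

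Psca was at 4.55, 4.55 and 6.45 (log2) across WT, 5.67, 10.25 and 7.13 across Nkx, and 14.29, 13.21, 10.47 and 13.83 across the Double libraries. Nkx replicate 2 stood far above the other Nkx libraries and just below Double replicate 3, the lowest of its group. Psca had the largest fold of the members in Double against WT, 7.76 ± 1.07 on the log2 scale or 217-fold (limma adjusted p = 0.000233), the fifth highest of all 15958 genes. It was 6.50 among female-pattern libraries alone, 6.86 with sex pattern as a covariate, 8.40 without WT replicate 3 and 8.59 without Double replicate 3, and passed in each (adjusted p = 0.000108 to 0.0349). Against Nkx the rise was 5.27 ± 1.07, or 38.5-fold (adjusted p = 0.00506), and it ranged from 4.26 (without Nkx replicate 1) to 6.55 (without Nkx replicate 2) over 18 alternatives, all of which passed, and was 6.10 without Double replicate 3. The Nkx difference from WT was 2.50 ± 1.14 (adjusted p = 0.228).

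Pgc was at 7.60, 8.41 and 6.97 (log2) across WT, 11.03, 10.58 and 10.88 across Nkx, and 11.46, 11.10, 12.28 and 12.94 across the Double libraries. The Nkx and Double libraries all stood at least 2 log2 units above WT, and the step from Nkx to Double was small beside that. Pgc rose in Nkx by 3.17 ± 0.44, or 8.99-fold (limma adjusted p = 0.00677), and in Double by 4.28 ± 0.41, or 19.5-fold (adjusted p = 2.39e-05). From Nkx to Double the difference was 1.11 ± 0.41 (adjusted p = 0.0762, 95% interval 0.21 to 2.02), with no overlap between the groups. It passed without Double replicate 2 (1.39, adjusted p = 0.028). Among female-pattern libraries alone Pgc differed from WT by 3.83 in Nkx (adjusted p = 0.17) and by 4.97 in Double (adjusted p = 0.00149).

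Cym was at 2.85, 3.81 and 4.73 (log2) across WT, 9.49, 6.66 and 9.55 across Nkx, and 8.23, 8.71, 7.16 and 11.35 across the Double libraries. All mutant libraries lay above WT, and Nkx and Double overlapped. In Nkx against WT, Cym had the highest log2 fold change of all 15958 genes, 4.77 ± 1.01 or 27.3-fold (limma adjusted p = 0.0347), and in Double it rose by 5.07 ± 0.94, or 33.5-fold (adjusted p = 0.00163). The WT values were low on the scale, which limits the size of both folds, and both differences passed with values under 4 raised to 4. The members were chosen with earlier results of these data known, so this rank and that of Psca are no test. Double minus Nkx was 0.30 ± 0.94 (adjusted p = 0.856), with a 95% interval of −1.77 to 2.36. The Nkx call was lost without any 1 of WT replicates 1, 2 and 3 or Nkx replicates 1 and 3 (4.28 to 5.24, adjusted p = 0.0522 to 0.122), and it was 5.72 without Nkx replicate 2 (adjusted p = 0.0418). Against WT the Double difference was 4.24 without Double replicate 4 and 4.24 with the replicate block (adjusted p = 0.00242 and 0.00617). Among female-pattern libraries alone Cym did not pass in Nkx (3.34, adjusted p = 0.445) or in Double (4.13, adjusted p = 0.0889).

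Gp2 was at 7.09, 5.33 and 10.27 (log2) across WT, 11.88, 11.29 and 11.11 across Nkx, and 10.65, 11.61, 10.41 and 10.57 across the Double libraries. WT replicate 3, the single WT library of female pattern, lay almost at the level of the Double libraries, which all had the female pattern. Gp2 rose in Nkx by 3.86 ± 0.90, or 14.6-fold (limma adjusted p = 0.0481), and in Double by 3.25 ± 0.84, or 9.51-fold (adjusted p = 0.0108). With sex pattern as a covariate the Double difference was 1.74 (adjusted p = 0.13), and between female-pattern libraries alone it was 0.54 in Double (adjusted p = 0.43) and 1.31 in Nkx (adjusted p = 0.369). The Nkx call was lost under 15 of 18 alternatives, among them the loss of any 1 library other than WT replicate 3 (adjusted p = 0.0543 to 0.154). Without WT replicate 3 the differences were 5.22 in Nkx and 4.60 in Double (adjusted p = 0.00132 and 7.34e-05), and without WT replicate 2 they were 2.75 and 2.13 (adjusted p = 0.133 and 0.04). Double minus Nkx was −0.62 ± 0.84 (adjusted p = 0.647, 95% interval −2.46 to 1.23).

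**Figure D2:**
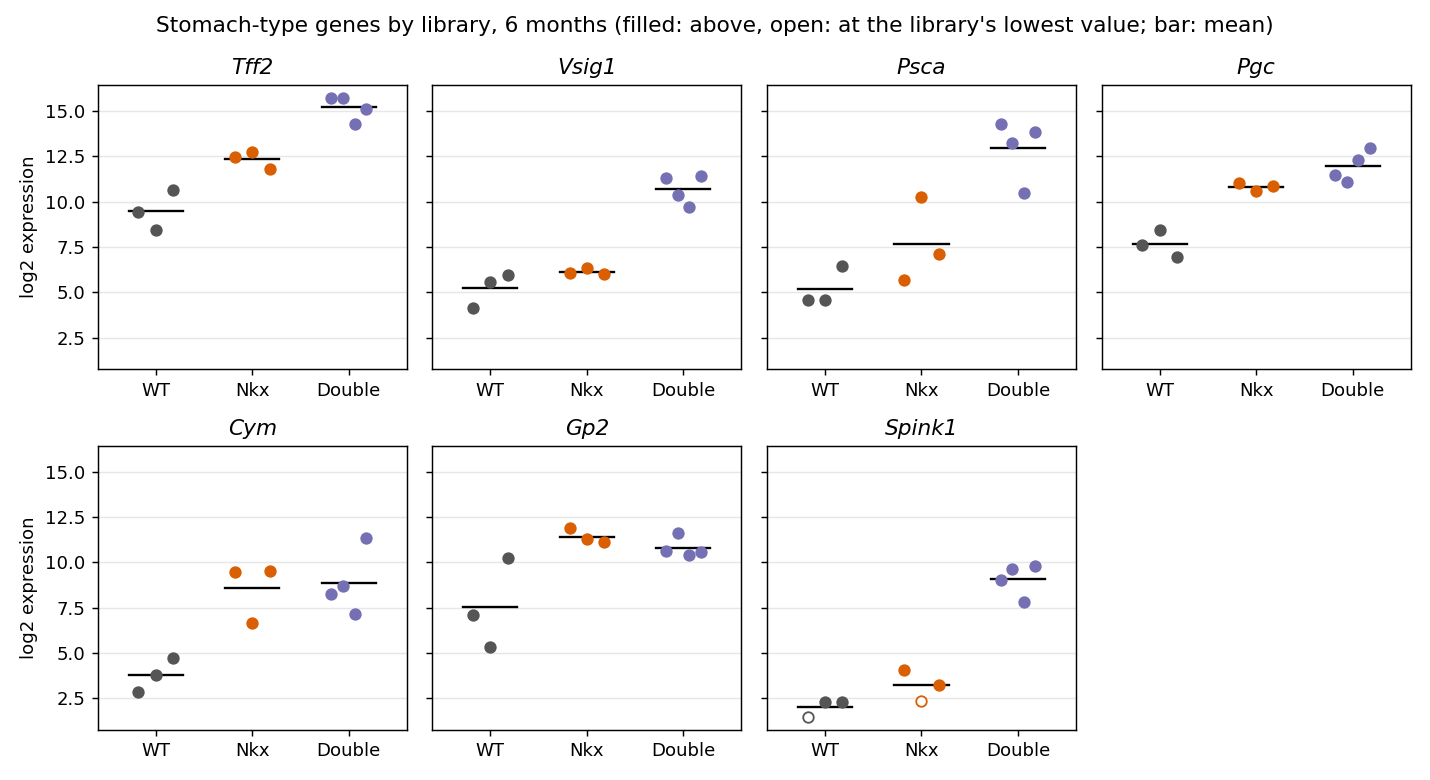
Log2 expression of the 7 measured genes in each 6-month library (points, in replicate order within WT, Nkx and Double; vertical axis in log2 units; bars are group means; open points are at the library's lowest value). The Double libraries of Spink1 lie at 7.80 to 9.80 against 4.07 or less elsewhere, while Cym and Gp2 reach the Double range already in Nkx.

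Counted over the 7 genes, 4 rose in Nkx against WT at 6 months, where 1.52% of all genes rose and 2.63% passed in either direction, and in 6 of 7 the Nkx libraries all lay above WT, against 16.1% of all genes. In Double against WT, 7 of 7 rose, where 18.4% of all genes rose and 36.3% passed either way, and 7 of 7 were clear of WT, against 21.1%. In Double against Nkx, 4 of 7 rose, where 10.2% rose and 21.7% passed either way, and 5 of 7 lay clear above Nkx, against 16.1%. Spink1, absent at E18.5 and at or near the lowest value in WT and Nkx, may be in the files through Double alone. It enters the counts of both Double comparisons. As at E18.5, the counts describe only the genes present, and the shares of all genes beside them are no test. Without WT replicate 1, WT replicate 2 or Nkx replicate 1, 1 of 7 passed in Nkx against WT, and without Nkx replicate 2 or 3 it was 2. Without any single library the count stayed at 7 in Double against WT and at 4 or 5 in Double against Nkx. Among female-pattern libraries alone, with 1 WT library that was assumed to vary like the others, 0 of 7 passed in Nkx against WT and 5 of 7 in Double against WT.

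**Figure D3:**
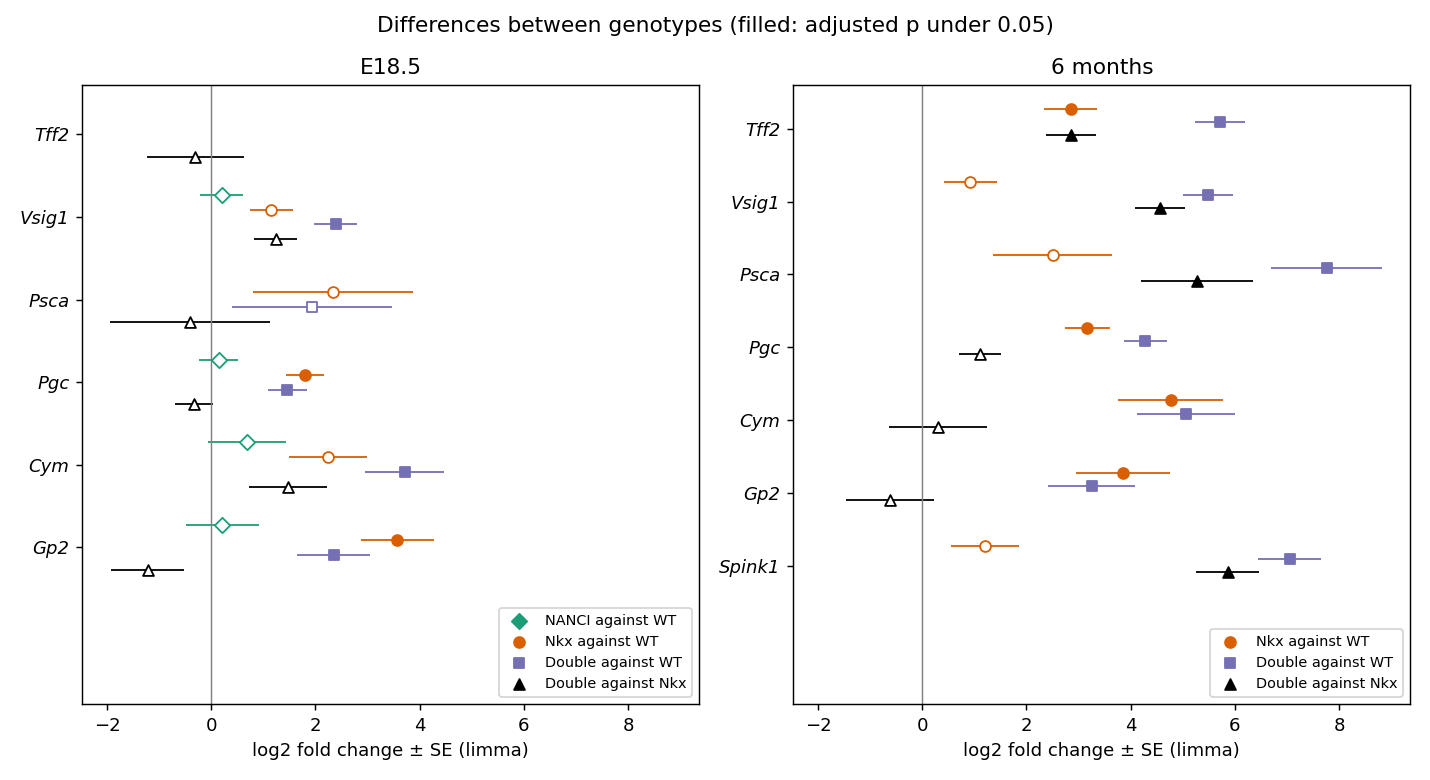
Log2 fold change ± SE of each gene in each comparison at E18.5 (left) and at 6 months (right), filled where the adjusted p is under 0.05; a gene has no point against a group at its lowest value. At 6 months the Double minus Nkx differences of Vsig1, Psca and Spink1 lie between 4.56 and 5.86, and those of Cym and Gp2 at 0.30 and −0.62.

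Markers of other cells also moved at 6 months. Of all genes, 36.3% passed in either direction in Double against WT, 21.7% in Double against Nkx and 2.63% in Nkx against WT. The mean of the 9 endothelial markers was 11.33 to 12.53 in WT, 10.71 to 11.74 in Nkx and 8.35 to 9.58 in Double libraries, and 9 of 9 fell in Double against WT and against Nkx. The mean of the 10 mesenchymal markers was 9.16 to 9.94, 8.58 to 9.17 and 6.41 to 8.02 in the same order, and 8 of 10 fell against WT and 6 against Nkx. The mean of the 4 mesothelial markers was 7.61 to 8.1, 7.57 to 8.51 and 6.1 to 7.26: against WT Upk3b and Lrrn4 fell in Double (−3.21 ± 0.62 and −2.94 ± 0.65, adjusted p = 0.00196 and 0.0045), Msln rose (2.16 ± 0.41, adjusted p = 0.00172), and Wt1 did not pass (−0.54 ± 0.47, adjusted p = 0.398). Leukocyte markers (13 of 14 measured, 1 higher and 1 lower in Double against WT) were at 6.92 to 7.48, 6.22 to 7.64 and 6.12 to 9.18. Their part in the rise of the 7 genes in Double was not tested. In Nkx against WT, 0 of the 9 endothelial, 0 of the 10 mesenchymal, 0 of the 4 mesothelial and 0 of the 13 leukocyte markers passed. The Double libraries all had the female pattern, WT 1 of 3 and Nkx 2 of 3.

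Other stomach genes were read from lists by cell type, and their counts stand beside the share of all genes called higher against WT, 3.67% in Nkx and 7.13% in Double at E18.5 and 1.52% and 18.4% at 6 months. The shares that passed in either direction were 7.32% and 14.6% at E18.5 and 2.63% and 36.3% at 6 months. The lists too were chosen with earlier results of these data known, so the counts describe the listed genes only. Like Spink1, the genes Atp4a, Clps and Anxa10 were measured at 6 months alone, with low WT means (2.81, 1.61 and 2.61). They may be in the files through the groups in which they are high, and they enter the 6-month counts below. Gastric mucous cell genes followed the members in part. At E18.5, 6 of 10 measured rose and 0 fell in Nkx and in Double against WT, with a median log2 fold change of 1.66 and 3.02 (0.02 over all genes in both). Muc5ac, the gel-forming mucin of gastric surface cells and airway goblet cells, rose by 2.82 ± 0.51 in Nkx (adjusted p = 0.00537) and by 4.05 ± 0.51 in Double (adjusted p = 0.000282). Mucl3, a mucin-like gene, was the 1 gene of all 13750 that passed between Double and Nkx at E18.5 (11.49 against 9.31, a difference of 2.18 ± 0.24, adjusted p = 0.0127). At 6 months 1 of 11 mucous genes rose in Nkx, Muc5ac (1.74 ± 0.33, adjusted p = 0.0241), and in Double against WT 7 rose and 2 fell, with a median of 3.36 (0.06 over all genes).

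Muc5ac at 6 months was at 7.46, 6.52 and 8.16 (log2) across WT, 9.13, 9.26 and 8.98 across Nkx, and 12.33, 12.06, 12.81 and 12.39 across the Double libraries, a row of 3 groups that did not overlap, as for Tff2. Anxa10, an annexin of gastric epithelium (5.08 ± 0.80), Ctse, the gene of the protease cathepsin E (4.76 ± 0.50), and Capn8, a calpain of gastric surface cells (4.07 ± 0.44), rose in Double against WT (adjusted p = 0.000564, 4.15e-05 and 4.62e-05). The WT means were 2.61 for Anxa10, low on the scale, 5.76 for Ctse and 5.60 for Capn8. Gkn3 went the other way. It was at 9.21, 7.83 and 8.13 (log2) across WT, 8.27, 9.42 and 8.67 across Nkx, and 6.61, 6.95, 7.08 and 6.32 across the Double libraries, and it fell by 1.65 ± 0.37 against WT (adjusted p = 0.00478).

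Chief and parietal cell genes were mixed. Gif, the gene of intrinsic factor, which chief cells secrete in mice, stood at 5.57, 4.55 and 5.95 (log2) across WT, 6.15, 6.66 and 6.46 across Nkx, and 9.89, 11.75, 12.7 and 12.31 across the Double libraries at 6 months. The rise in Double, 6.30 ± 0.57 (adjusted p = 1.55e-05), was like that of Spink1 and Vsig1 in that Double also stood above Nkx (5.24 ± 0.57, adjusted p = 0.000172). At E18.5 Gif differed the other way: it was at 11.4, 11.4 and 11.34 in WT and 10.78, 10.39 and 10.45 in Double libraries (−0.84 ± 0.15, adjusted p = 0.00317). Of 5 chief cell genes at 6 months, 2 rose and 1 fell in Double against WT (median 0.81). Of 7 parietal cell genes, 2 rose and 3 fell (median −0.79): the proton pump gene Atp4a rose by 3.51 ± 0.78 (adjusted p = 0.00486), while the potassium channel subunit gene Kcne2 changed by −1.17 ± 0.25 (adjusted p = 0.00388). The WT means of those that fell were 12.97 (Slc26a9), 12.47 (Kcne2) and 7.46 (Esrrg), and of those that rose 2.81 (Atp4a) and 10.77 (Kcnq1). The WT means of Slc26a9 and Kcne2 thus lay above the medians of the WT libraries (9.58 to 9.59), so both transcripts were present in WT samples. Which cells held them was not tested. Of 2 endocrine genes, Hdc, the histamine-forming enzyme, fell from a WT mean of 14.09 (−2.37 ± 0.18, adjusted p = 6.58e-06). In Nkx against WT at 6 months, 0 of 5 chief cell, 0 of 7 parietal cell and 0 of 2 endocrine genes passed. At E18.5, 1 of 4 chief cell genes rose in Nkx and 1 rose and 1 fell in Double. Of 6 parietal cell genes there, 1 rose and 1 fell in Nkx, and 1 rose and 2 fell in Double.

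Intestinal genes rose in 3 of these 4 comparisons with WT, and pancreatic acinar genes fell or did not pass in 3 of them. Of 17 listed intestinal genes, 8 were measured at E18.5 and 11 at 6 months. At E18.5, 5 of 8 intestinal genes rose and 0 fell in Nkx against WT (median 4.82), and 6 of 8 rose and 0 fell in Double (median 4.72). At 6 months 0 of 11 passed in Nkx, and 7 of 11 rose and 0 fell in Double (median 1.83, against 0.06 over all genes). Tff3, the intestinal trefoil gene next to Tff2, was at 10.85, 11.36 and 9.82 in E18.5 Nkx and at 4.07, 2.34 and 2.85 in 6-month Nkx libraries, the second of these at its library's lowest value. The difference of Tff3 from WT was 8.09 ± 0.69 (adjusted p = 8.75e-05) at E18.5 and 1.26 ± 0.74 (adjusted p = 0.347) at 6 months, while Tff2 passed at both ages, and no difference between the ages was tested. The WT means of Tff3, 2.59 at E18.5 and 1.83 at 6 months, were near the bottom of the scale, which limits the size of both differences. Of 16 listed pancreatic acinar genes, 3 were measured at E18.5 and 4 at 6 months, so the counts say nothing of the rest. At E18.5, 0 of the 3 rose and 1 fell in Nkx (median −0.73), and 0 rose and 2 fell in Double (median −0.94). At 6 months 0 of 4 passed in Nkx. Of the 4, 3 rose and 1 fell in Double against WT (median 2.70), among them the colipase gene Clps (5.29 ± 0.75, adjusted p = 0.000299) and the lipase-related gene Pnliprp1 (4.02 ± 0.34, adjusted p = 1.08e-05). The size of the Clps difference rests on a WT mean of 1.61, near the lowest values of the WT libraries. Rbpjl, an acinar transcription factor gene, fell from a WT mean of 13.37 (−2.36 ± 0.42, adjusted p = 0.00125). Its transcript was thus present in WT samples, and which cells held it was not tested.

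Of the stomach transcription factor genes, 4 of 12 rose in Nkx and 5 of 12 in Double against WT at E18.5, and 0 fell, with medians of 0.60 and 0.76 (0.02 over all genes). At 6 months 2 of 13 rose in Nkx (median 0.40, against 0.01), and 7 rose and 1 fell in Double (median 1.39, against 0.06). Hnf4a, a nuclear receptor of stomach, gut and liver, was at 4.95, 4.13 and 5.15 (log2) across WT, 6.88, 6.25 and 8.45 across Nkx, and 11.83, 11.01, 11.05 and 12.12 across the Double libraries at 6 months. Like Tff2, it passed at each step, by 2.45 ± 0.51 from WT to Nkx (adjusted p = 0.0339) and by 4.31 ± 0.48 from Nkx to Double (adjusted p = 0.000206). Spdef, a factor of goblet and mucous cells, rose in Nkx by 1.62 ± 0.21 (adjusted p = 0.00574) and in Double by 2.60 ± 0.20 against WT (adjusted p = 6.3e-06).

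**Figure D4:**
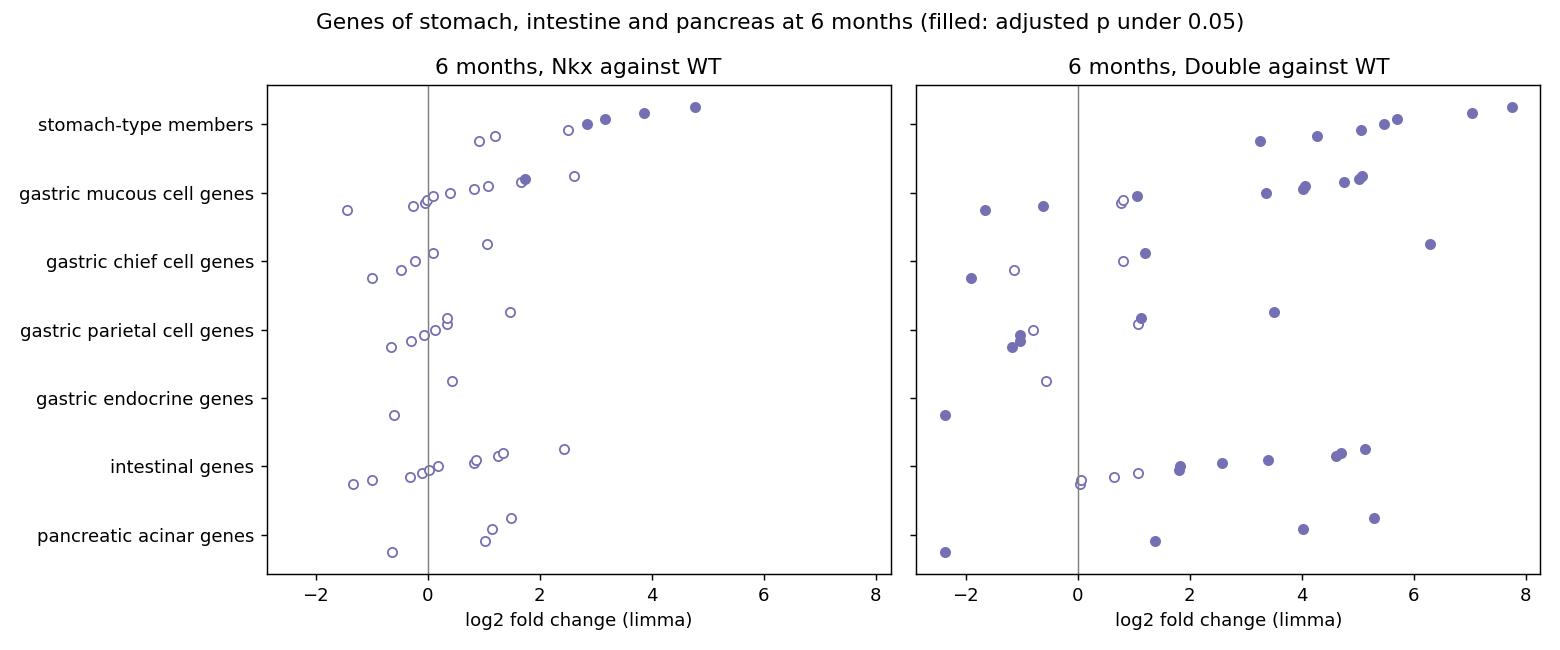
Log2 fold change at 6 months of each measured gene of 7 lists, in Nkx against WT (left) and Double against WT (right); each point is a gene, filled where its adjusted p is under 0.05. The stomach-type genes lie at 0.92 to 4.77 in Nkx and at 3.25 to 7.76 in Double, while parietal cell genes lie on both sides of 0.

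The genes whose values most resembled the mean of the members' standardized values were found over all libraries of an age. At E18.5 (12 libraries) they were Nt5c2, Lman1l, Gcnt3, Thbs1 and Pwp1, with Pearson's r from 0.958 to 0.973. At 6 months (10 libraries) they were Iyd, Galnt5, Ifngr1, Qsox1 and Itih2, with r from 0.98 to 0.995. The members themselves had r from 0.601 (Psca) to 0.902 (Tff2) at E18.5 and from 0.728 (Gp2) to 0.979 (Tff2) at 6 months. Each member is part of the mean it is set against, which raises its r, so these values cannot be compared with those of the other genes. The libraries share their genotype groups, so these values describe likeness only.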

How the data were processed

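RNA of EpCAM-enriched lung epithelium was measured in 22 libraries. The authors deposited 1 log2 value per Ensembl gene ID and library; all libraries of an age share nearly the same values by rank, so they were read as quantile-normalized log2 expression, which is inferred. The submitters' processing notes name STAR and limma and the mouse build mm9; the sources used here do not give versions, roles or library construction. Such values hide total depth and any shift shared by most genes. Symbols and GRCm38 coordinates came from GENCODE by gene ID (99.2% of E18.5 and 96.2% of 6-month IDs matched), and promoters from RefSeq.

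Groups were taken from the labels. For each age, 1 model over all libraries, with group as the sole factor, was fitted with limma 3.58.1 in R 4.3.3 (eBayes with trend). In each of 7 comparisons, all genes entered 1 Benjamini-Hochberg adjustment, with a threshold of 0.05; errors after ± are standard errors. The fit was tested on simulated data. Alternatives were a fit without the trend, 2 groups alone, genes with a mean of at least 5, values under 4 raised to 4, sex pattern, depth or replicate number as a term, and each library left out; female-pattern libraries alone were added after seeing the data. Replicate numbers were not treated as pairs in the main fit. The correlation of same-numbered deviations was −0.28 to 0.5 at E18.5, over 0.1 in 6 of 18 pairs. At 6 months it was −0.3 to 0.13, over 0.1 in 1 of 9. With so few libraries per group these values cannot decide whether the numbers mark a pairing or a shared batch.

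The members and lists were chosen with earlier results of these data known. All 10 members were named where measured. From each wider list up to 4 passing genes with the largest change were to be named, or 2 with the highest mean where none passed; some of these are given by counts alone. Gkn3, Gif at E18.5, and Tff3 at 6 months in Nkx, were named after their values were seen. The 5 genes of most similar pattern were named per age.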

Additional observations from a re-analysis of the deposited data

How the results depend on the processing

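The number of members that passed changed by over 1.5 times in 3 comparisons. In E18.5 Nkx against WT it was 3, and 1 among genes with a mean of at least 5 (which keeps 3 members in the fit) and 0 among female-pattern libraries alone. In E18.5 Double against WT it was 5, and 3 with 2 groups alone, with a mean of at least 5, with values under 4 raised to 4 or with a depth term, 0 among female-pattern libraries alone, and 3 to 5 with 1 library left out. In 6-month Nkx against WT it was 4, and 1 without the trend, 2 with a sex term, 2 with the replicate block, 0 among female-pattern libraries alone, and 1 to 3 with 1 library left out. The replicate block also gave 4 in E18.5 Double against WT and left the count as it was in the other 5 comparisons, and the numbers share no stated pairing. The count stayed at 7 in 6-month Double against WT with any 1 library left out and was 4 to 5 in 6-month Double against Nkx; it stayed at 0 in E18.5 NANCI against WT and Double against Nkx.

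Of 426 alternatives of differences that passed, 364 passed too, 62 did not and 0 changed sign. Sign changed in 16 alternatives of differences that had not passed. In E18.5 NANCI against WT these were Pgc (−0.01) and Cym (−0.16) without WT replicate 3, Vsig1 (−0.16) without WT replicate 2, and Gp2 (−0.04) without NANCI replicate 2. In E18.5 Double against Nkx they were Psca without Nkx replicate 1 (0.62), Nkx replicate 3 (0.39), Double replicate 2 (0.37) or Double replicate 3 (0.33) and in female-pattern libraries (1.13), Pgc without Double replicate 1 (0.21), and Tff2 without Nkx replicate 1 (0.14) or Double replicate 3 (0.80) and in female-pattern libraries (0.45). In 6-month Double against Nkx Cym was at −0.53 with the replicate block, −0.66 without Nkx replicate 2 and −0.53 without Double replicate 4. The cause was not tested. With 1 library left out, the E18.5 NANCI differences ranged up to 0.28 (Pgc), 0.64 (Gp2), 0.43 (Vsig1) and 1.31 (Cym), the E18.5 Double minus Nkx differences down to −2.24 (Psca), −0.68 (Pgc) and −1.59 (Tff2), and that of Cym at 6 months up to 0.87. Depth is unknown, and a gene at the lowest value of its library limits any fold.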

Other observations

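Of 5 squamous and basal epithelial genes measured at 6 months, which belong to none of the stomach lists, 3 rose and 0 fell in Double against WT, and 0 of 5 passed in Nkx against WT. Of all genes, 18.4% rose in Double against WT, and 2.63% passed in either direction in Nkx against WT. At E18.5, where 7.13% of all genes rose in Double against WT, only Krt4 was measured. Krt4, a keratin of squamous lining such as the oesophagus and forestomach, was at 5.15, 4.29 and 7.23 in WT and 8.24, 9.15 and 8.43 in Double libraries at E18.5, a log2 difference of 3.05 ± 0.60 (limma adjusted p = 0.00502). At 6 months Krt4 was at 3.25, 1.32 and 4.73 across WT (the second at the lowest value), 5.42, 4.55 and 4.94 across Nkx, and 10.74, 8.5, 9.11 and 9.83 across the Double libraries. It rose in Double by 6.45 ± 0.73 against WT (limma adjusted p = 6.45e-05) and by 4.58 ± 0.73 against Nkx (adjusted p = 0.00144). Trp63, the basal cell factor, rose in Double by 1.71 ± 0.45 against WT (adjusted p = 0.0122). Krt14, a basal cell keratin, rose by 3.66 ± 1.04 (adjusted p = 0.0169), with overlapping libraries. Krt5 (1.47 ± 0.93, adjusted p = 0.242) and Krt13 (1.54 ± 0.62, adjusted p = 0.072) did not pass.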
